A study of Mus musculus with 2 samples.

Results

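The circadian clock genes Per1, Per2, Per3, Cry1, Dbp, Tef, Hlf, Nr1d1, Nr1d2 and Arntl were examined in the white matter of wild-type (WT) mice and of mice null for CD47 (CD47 KO). The tissue was the optic tract together with the optic nerve. Their probe sets were chosen by gene symbol, as every probe set that the platform annotation gives to one of these 10 genes. That made 23 probe sets, and 10 of the 18193 genes named on the array. CD47 is the membrane protein that engages the inhibitory receptor SIRPα on microglia, and the CD47 KO mice carry a null allele in all cells. All mice were male and were kept on 12 h of light and 12 h of dark. The WT mice were 13 to 15 weeks old and the CD47 KO mice 12 to 15 weeks. Each genotype was 1 pool of total RNA on 1 Affymetrix GeneChip Mouse Genome 430 2.0 array. The series description counts 5 WT and 4 CD47 KO animals in the pools, and the labelling protocol counts 4 and 5. The labels and methods used here do not state at what hour the tissue was taken, or whether it was the same hour for both genotypes. With 1 array per genotype no test between genotypes was possible, so every difference below is a difference between these 2 pools and carries no error.

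The mammalian clock is a feedback loop of transcription factors that runs in nearly every cell. BMAL1, the product of Arntl, pairs with CLOCK and activates genes through E-boxes, among them the Per and Cry genes, whose proteins return to repress the pair. The same E-boxes drive Nr1d1 and Nr1d2, which encode REV-ERBα and REV-ERBβ, and these repress Arntl and Cry1 through ROR elements. Dbp, Tef and Hlf encode PAR bZIP activators that bind D-boxes and carry the rhythm to output genes. In peripheral tissues of mice Arntl peaks around dawn and Cry1 late in the night, here called the morning phase. The Nr1d, PAR bZIP and Per genes peak from the day into the early night, here called the evening phase. A given hour of the day therefore finds the 2 phases at different levels, and glial cells of white matter carry the same loop.

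The promoters of 4 of the genes are shown because their windows hold matches to elements of this loop, in evening genes (Per1 and Per3) and in morning genes (Cry1 and Arntl). An E-box was found in a gene of each phase, so these matches do not separate the phases. The sequences are from RefSeq on GRCm38.p6, 250 bases before to 50 after the annotated start, and capitals mark the motifs found. The Per1 window is chr11:69098699-69098998 on the plus strand, that of Cry1 chr10:85185005-85185304 on the minus strand, that of Per3 chr4:151044616-151044915 on the minus strand, and that of Arntl chr7:113207261-113207560 on the plus strand.
Per1: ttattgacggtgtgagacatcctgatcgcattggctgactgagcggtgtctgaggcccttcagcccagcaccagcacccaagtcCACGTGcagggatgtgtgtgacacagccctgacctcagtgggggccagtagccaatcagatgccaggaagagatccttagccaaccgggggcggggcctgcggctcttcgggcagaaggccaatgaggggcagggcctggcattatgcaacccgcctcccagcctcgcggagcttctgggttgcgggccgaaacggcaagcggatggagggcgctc
Cry1: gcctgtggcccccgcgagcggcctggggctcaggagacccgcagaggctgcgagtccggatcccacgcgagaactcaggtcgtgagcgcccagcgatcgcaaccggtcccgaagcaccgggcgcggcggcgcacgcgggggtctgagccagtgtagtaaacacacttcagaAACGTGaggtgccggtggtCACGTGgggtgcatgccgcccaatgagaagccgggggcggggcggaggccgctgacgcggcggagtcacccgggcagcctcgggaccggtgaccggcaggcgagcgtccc
Per3: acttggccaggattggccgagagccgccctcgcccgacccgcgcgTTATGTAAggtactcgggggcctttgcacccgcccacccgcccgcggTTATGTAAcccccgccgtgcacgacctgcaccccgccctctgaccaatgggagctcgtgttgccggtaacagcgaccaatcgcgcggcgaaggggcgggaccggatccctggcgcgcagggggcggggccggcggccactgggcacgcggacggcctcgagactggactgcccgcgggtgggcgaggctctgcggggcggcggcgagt
Arntl: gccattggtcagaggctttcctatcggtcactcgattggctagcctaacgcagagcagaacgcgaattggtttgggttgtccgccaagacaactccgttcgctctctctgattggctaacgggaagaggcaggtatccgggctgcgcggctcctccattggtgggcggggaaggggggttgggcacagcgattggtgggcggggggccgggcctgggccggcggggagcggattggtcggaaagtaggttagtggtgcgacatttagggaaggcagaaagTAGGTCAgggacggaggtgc
In the Per1 window the capitals mark 1 E-box (CACGTG), 166 bases before the start. The Cry1 window holds an E-box 60 bases before the start and a variant (CACGTT, found as its reverse complement) 79 bases before it. The Per3 window has D-boxes (TTANGTAA) 205 and 158 bases before the start. The Arntl window shown is the second given for that gene and has a ROR element (TAGGTCA or TGGGTCA) from base 31 after the start. The other window of Arntl held none of the motifs. Motifs were searched on both strands, and none overlapped another. An E-box was found in 7.15% of all 32851 promoters of this length, the variant in 4.68%, a D-box in 2.32% and a ROR element in 6.45%. Promoters were given for 9 of the 10 genes, 12 windows in all, and Per2 had none. An E-box was also present in both windows of Tef, the variant in that of Nr1d1, and a cyclic AMP response element (TGACGTCA), held by 1.79% of all promoters, in that of Hlf. The windows of Dbp and Nr1d2 held none of the motifs. A match describes the letters and does not show that a factor binds there.

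By their brightest probe sets, all 10 clock genes had a lower signal in the CD47 KO pool than in the WT pool, by small amounts, with the exceptions under other processing that Dbp was at a log2 ratio of 0.01 without probe sets that may detect several transcripts and Per3 at 0.15 by the median of its probe sets. The morning genes were on the same side as the evening genes. By the brightest probe set, the log2 ratio of the CD47 KO to the WT signal ran from -0.06 for Arntl to -0.53 for Per2, with a median of -0.27. None was over 1.5-fold or 2-fold lower. For comparison, 53.2% of the 12473 measured genes, those whose signal passed the floor on 1 array or both, had a log2 ratio below 0. Over 1.5-fold lower were 4.68% of them and over 2-fold lower 0.818%, while 4.02% were over 1.5-fold and 1.21% over 2-fold higher. The floor was a MAS5 signal of 106.4, the median of all signals on both arrays, under which a ratio has little meaning. The median log2 ratio of all measured genes was -0.02. Pairs of probe sets of the same gene, both above the floor on both arrays, differed in their log2 ratio with an SD of 0.36 over 11653 pairs. This SD is the only repeat measurement available and holds no variation between mice or hybridisations. It is the SD of a difference between 2 log2 ratios, and divided by the square root of 2, for a single log2 ratio, it is 0.26. The log2 ratios of Per1, Tef, Hlf and Arntl were smaller than 0.26 in size, and those of the other clock genes were larger. In bulk tissue fewer cells of a type and less RNA per cell cannot be told apart, which holds for every value given here.

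**Figure D1:**
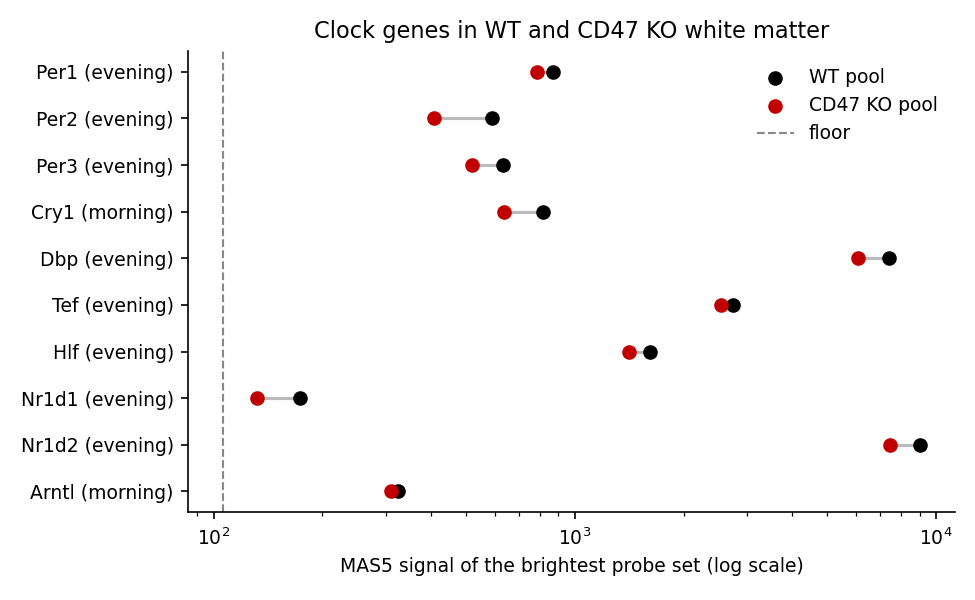
MAS5 signal (horizontal, log scale) of the brightest probe set of each clock gene in the WT pool (black) and the CD47 KO pool (red), with 1 array each, the phase of the gene in brackets and the floor of 106.4 as a dashed line. Each red point lies to the left of its black point, furthest for Per2 (589 and 407) and least for Arntl (325 and 311).

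The Per genes encode the repressor proteins that bind CRY1 and CRY2. Per2 went from 589 in the WT pool to 407 in the CD47 KO pool, 1.45-fold lower (log2 ratio -0.53), and only 6.08% of the measured genes had a lower log2 ratio. It is the largest difference among the 10 genes by this probe set. The next probe set of Per2 went from 122.6 to 131.5, a log2 ratio of 0.10, close to the floor on both arrays. Per3 went from 632 in the WT pool to 521 in the CD47 KO pool, 1.21-fold lower (log2 ratio -0.28). Per1, which also responds quickly to glucocorticoids and to cyclic AMP, went from 870 in the WT pool to 788 in the CD47 KO pool (log2 ratio -0.14). Of the 3 Per genes Per1 thus differed least, and it has 1 probe set on the array.

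The PAR bZIP genes are the direct outputs of the clock. Dbp, whose transcript is among the most strongly rhythmic in mouse tissues, went from 7404 in the WT pool to 6065 in the CD47 KO pool, 1.22-fold lower (log2 ratio -0.29). Its other probe set went from 2118 to 2136, a log2 ratio of 0.01, so that the lower Dbp signal rested on 1 of 2 bright probe sets. That brighter one is of the type that may detect other transcripts too. Hlf went from 1619 in the WT pool to 1413 in the CD47 KO pool (log2 ratio -0.20), and its second probe set gave -0.12. Tef went from 2740 in the WT pool to 2535 in the CD47 KO pool (log2 ratio -0.11), and its other probe sets gave -0.17 and, with the CD47 KO array at the floor, -0.03 as a bound. Hlf and Tef were therefore lower by every measured probe set, and by less than 1.15-fold for the brightest.

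Among the REV-ERB genes, Nr1d2 went from 9024 in the WT pool to 7480 in the CD47 KO pool, 1.21-fold lower (log2 ratio -0.27). Its second probe set was under the floor on both arrays. Nr1d1, the stronger oscillator of the pair in most tissues, went from 173.6 in the WT pool to 131.7 in the CD47 KO pool, 1.32-fold lower (log2 ratio -0.40). Both values of Nr1d1 lie just above the floor, and at a floor of the 60th percentile of all signals (187) neither array measured it. By the brightest probe set the median of the 8 evening genes was -0.27, and 8 of 8 were below 0, against 53.2% of all measured genes. By the median over probe sets the evening median was -0.15, with Per3 at 0.15.

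The morning genes split by size. Arntl, which encodes the activator BMAL1, went from 325 in the WT pool to 311 in the CD47 KO pool, 1.04-fold lower (log2 ratio -0.06), with 42.1% of the measured genes below it. Cry1, which encodes the most potent repressor of the CLOCK-BMAL1 pair, went from 816 in the WT pool to 638 in the CD47 KO pool, 1.28-fold lower (log2 ratio -0.36), with 12.9% of the measured genes below it. Arntl was the gene of the 10 with the smallest difference, and Cry1 had the third largest. The second probe set of Arntl was under the floor on both arrays.

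Probe sets of the same gene did not always give the same sign. Of the 23 probe sets, 16 were above the floor on both arrays, and 13 of these had a log2 ratio below 0 and 3 above it. A further 2 had 1 array at the floor and 5 were under it on both. The share below 0 among all probe sets of the array was not counted. Over all measured genes it was 53.2%, and several of the 16 probe sets belong to the same gene. Per3, with 6 probe sets, had the widest spread. After its brightest one, the next gave -0.01 (185.4 in WT, 184.5 in CD47 KO) and another 0.31 (142.4 and 176.8). The remaining measured one went from 102.7 in WT, under the floor, to 218.7 in CD47 KO, at least 2.06-fold higher, the one probe set of these genes past 2-fold. It runs opposite to the brightest probe set of Per3, and the transcript parts that the probe sets cover were not compared.

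**Figure D2:**
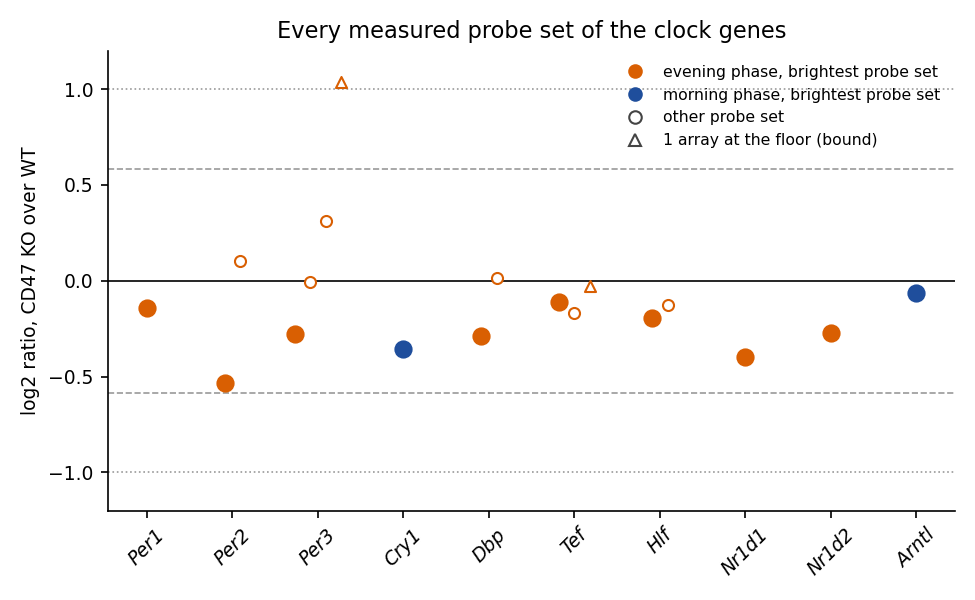
Log2 of the CD47 KO signal over the WT signal (vertical) for each of the 18 measured probe sets of the clock genes, the brightest of each gene filled, with evening genes in orange, morning genes in blue and triangles where 1 array was at the floor. Dashed lines mark 1.5-fold and dotted lines 2-fold, and the brightest probe sets all lie between 0 and -0.53 while a dim probe set of Per3 reaches 1.04.

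Because the phases cycle apart, the evening genes were set against the morning genes within the same 2 arrays. The median log2 ratio was -0.27 for the 8 evening genes and -0.21 for the 2 morning genes, a difference of -0.06. Against Arntl, 8 of 8 evening genes were further down, with differences from -0.05 to -0.47 on the log2 scale and a median difference of -0.21. Against Cry1, 2 of 8 were further down, Per2 and Nr1d1, and the differences ran from -0.18 to 0.24 with a median of 0.08. The sign of the contrast thus depended on which morning gene was taken. These counts restate the ranks of Arntl and Cry1 among the clock genes. When each gene was given the median of its measured probe sets in place of the brightest, the difference between the phases was 0.06. The evening median was then -0.15 and the morning median -0.21. None of the 16 differences between an evening and a morning gene went beyond -0.47, whereas 95% of the pairs of probe sets of the same gene differed by less than 0.74.

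**Figure D3:**
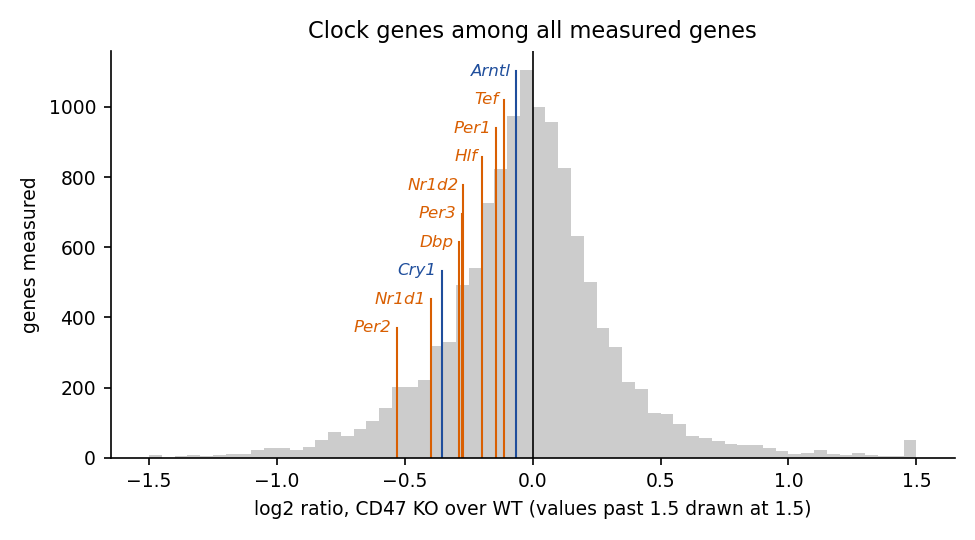
Number of measured genes (vertical) by log2 of the CD47 KO signal over the WT signal (horizontal, bins of 0.05) for all 12473 genes in grey, with the evening genes (orange) and morning genes (blue) drawn at their own log2 ratios. All 10 lie on the left side of 0 and within the bulk of the distribution, where 53.2% of all genes lie below 0.

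The further clock genes lay on both sides of 0, in shares near those of all measured genes. Of 25 further clock genes, 23 were on the array with a probe set of their own. Of these, 20 passed the floor on 1 array or both. By the brightest probe set, 11 of the 20 had a log2 ratio below 0 and 9 above, with a median of -0.04. Over all measured genes 53.2% were below 0. None of the 20 was over 1.5-fold, while 4.68% of all measured genes were over 1.5-fold lower and 4.02% over 1.5-fold higher. Of the 20, 3 peak in the morning phase. Clock, which encodes the partner of BMAL1, went from 1345 in the WT pool to 1752 in the CD47 KO pool (log2 ratio 0.38), and its other measured probe sets gave 0.14 and 0.01. Npas2, which encodes an alternative partner, went from 99.4, under the floor, to 135.3, at least 1.27-fold higher. Nfil3, which encodes a repressor that competes with the PAR bZIP proteins at D-boxes, went from 289 to 235 (log2 ratio -0.30). The morning genes outside the 10 were therefore not all on the side of Arntl and Cry1.

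Of the 4 further evening genes 3 were measured. Ciart, which encodes a repressor of BMAL1, went from 473 in the WT pool to 452 in the CD47 KO pool (log2 ratio -0.07). Wee1, a cell cycle kinase gene under clock control, went from 679 to 566 (log2 ratio -0.26). Its second probe set went from 164.5 in WT to 103.8 in CD47 KO, under the floor, at least 1.55-fold lower. The ubiquitin protease gene Usp2 went from 1267 to 1369 (log2 ratio 0.11). The second probe set of Usp2, about as bright, gave -0.13, so its direction is not settled. Bhlhe41, an E-box repressor gene, was under the floor on both arrays. Among the rest, by the brightest probe set, the largest differences were those of Btrc, which encodes a ubiquitin ligase subunit that targets PER proteins, from 552 to 376 (log2 ratio -0.55), and of the E-box repressor gene Bhlhe40, from 1198 to 1617 (log2 ratio 0.43). The other measured probe set of Btrc went the opposite way, with a log2 ratio of 0.64. Cry2, the paralog of Cry1, went from 426 to 336 (log2 ratio -0.34). Both Cry genes were thus lower in the CD47 KO pool, by 1.28-fold and 1.27-fold.

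Some clock genes also answer to stress hormones, to neuronal activity and to body temperature, so genes of these responses were read on the same arrays. Of 12 glucocorticoid response genes 8 had a log2 ratio below 0, with a median of -0.13, and of all measured genes 53.2% were below 0. Zbtb16 (from 957 to 511, log2 ratio -0.90) and Sult1a1 (from 3409 to 2234, -0.61) were over 1.5-fold lower and the phagocytic receptor gene Mertk (from 846 to 1319, 0.64) was over 1.5-fold higher. Fkbp5, a chaperone gene that glucocorticoids induce in most cells, was chosen after its values were seen and went from 3029 to 2145 (log2 ratio -0.50). The rest of the list went both ways. Cdkn1a was at -0.55, Tsc22d3 at -0.38, Pdk4 at -0.15, Klf9 at -0.11 and Dusp1 at -0.03. Sgk1 was at 0.02, Mt1 at 0.11 and Mt2 at 0.30. Of 8 measured immediate early genes 6 were above 0 and 2 below, with a median of 0.30, whereas 53.2% of all measured genes were below 0. The value of Arc, -0.05, is a bound, from 110.4 in WT to 52.2 in CD47 KO, under the floor. Atf3 was 2.30-fold and Fos 1.63-fold higher and Nr4a1 1.69-fold lower. The 7 measured temperature-driven genes had a median of -0.02, with Cirbp, a gene induced by cold, at -0.33 and the heat shock genes Hspa1a and Dnajb1 at 0.31 and 0.23. The part of these responses in the lower signals of the clock genes was not tested.

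The suprachiasmatic nucleus, the central clock of the brain, lies just above the optic chiasm, where the optic nerves join and pass into the tracts. Genes listed as markers of that nucleus were therefore read. Of 12 on the array, 8 were above the floor on both arrays and Lhx1, Prok2, Syt10 and Vipr2 were under it on both. The neuropeptide gene Vip went from 2133 in the WT pool to 1531 in the CD47 KO pool (log2 ratio -0.48), and the median of the 8 was -0.09, with 5 below 0. The next largest were the prokineticin receptor gene Prokr2 (-0.19) and the gastrin-releasing peptide gene Grp (0.18). The summed signal of the 12 markers was 31751 in WT and 28320 in CD47 KO, and that of Avp, the vasopressin gene, 24982 and 22364 (log2 ratio -0.16). Probe sets differ in affinity, so this sum mostly restates Avp, and sums for the other lists are likewise set by their brightest probe sets. None of the markers had a signal of 0. Whether the signals of these markers came from this nucleus or from other tissue was not tested. The share of clock gene signal that came from this nucleus was not tested either.

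Markers of several cell types had larger log2 ratios than the clock genes. All 10 neuronal markers were over 1.5-fold lower in CD47 KO and 5 were over 2-fold lower, led by Nefm (log2 ratio -1.32), Slc17a6 (-1.28) and Gad1 (-1.12), and their summed signal was 17322 in WT and 8961 in CD47 KO. The summed signal of the 7 microglial markers was 20794 in WT and 29293 in CD47 KO, with Itgax (2.65), Cx3cr1 (1.35) and Aif1 (0.96) furthest from 0. Of these 7 markers 5 were above 0 and 2 below, Tmem119 at -0.52 and P2ry12 at -0.14. Meningeal markers were lower for 5 of 5, with a median of -0.41 and summed signals of 29885 (WT) and 24204 (CD47 KO), and Aldh1a2, Col1a1 and Slc22a6 gave -0.53, -0.52 and -0.41. Endothelial markers were lower for 4 of 4 measured, with a median of -0.40 and summed signals of 1469 (WT) and 1091 (CD47 KO), and Kdr, Flt1 and Cldn5 gave -0.79, -0.41 and -0.40. The 3 measured markers of choroid plexus gave -0.68 for Ttr, -0.51 for Kl and 0.05 for Clic6, with summed signals of 1412 (WT) and 975 (CD47 KO), Folr1 and Slc4a5 being under the floor. The cells that define white matter were present in both pools: the 7 oligodendrocyte markers, led by Opalin (0.62), Mobp (0.15) and Mog (0.11), summed to 176057 in WT and 191220 in CD47 KO, and the 7 astrocyte markers, led by Gfap (0.52), Aqp4 (0.31) and Slc1a3 (0.17), to 106335 and 117045. Of the former 6 were above 0 and Cldn11 was at -0.05, and of the latter 5 were above 0, with Gja1 at -0.09 and S100b at -0.04. Of the retina markers, Crx and Pde6a were under the floor on both arrays and Rom1, Opn4 and Rlbp1 gave 0.90, -0.23 and 0.18. The part of cell composition in the clock gene values was not tested. The control probe sets at the 3' and 5' ends, a measure of RNA quality, had a ratio of 1.05 in WT and 1.13 in CD47 KO for Gapdh, and 2.42 and 2.19 for β-actin. The targeted gene, Cd47, had log2 ratios of -1.54, -1.34 and -1.36 in its 3 probe sets that passed the floor on both arrays, and their signals in the CD47 KO pool were still 1346, 1225 and 838. Whether they lie within the deletion was not examined.

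**Figure D4:**
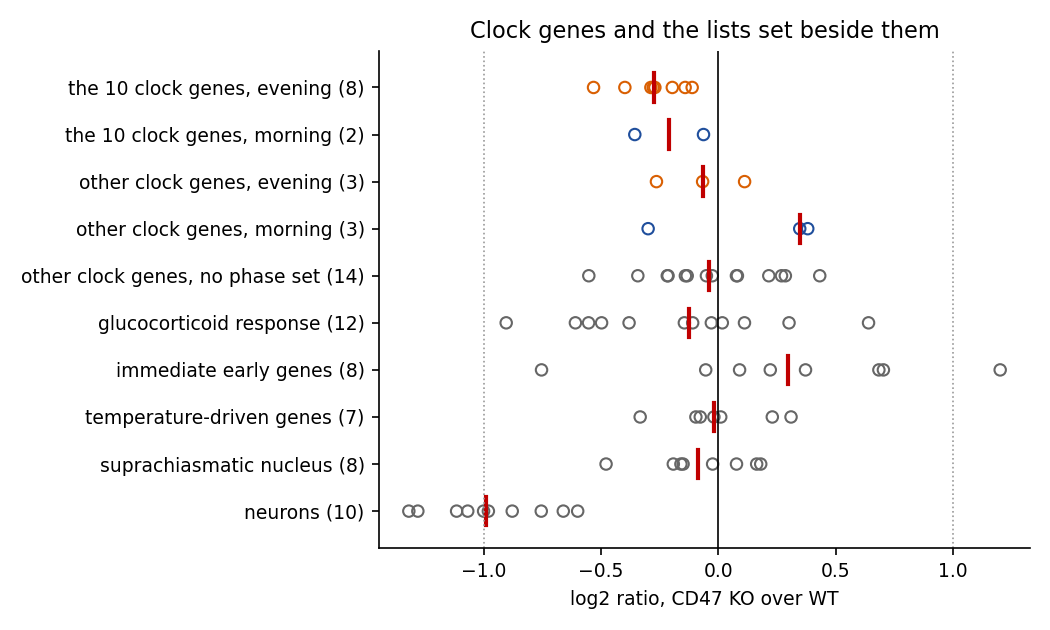
Log2 of the CD47 KO signal over the WT signal (horizontal) of the measured genes (circles, number in brackets) of each list, with the list median as a red bar and dotted lines at 2-fold. Both groups of clock genes lie between 0 and -0.53, the morning clock genes outside the 10 have a median of 0.35 with Npas2 at its bound, and the neuronal markers have the lowest median, -0.99.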

How the data were processed

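Total RNA of the pools (250 ng) was labelled by in vitro transcription from the 3' end and hybridised to 1 array per genotype. The deposited table gives the MAS5 intensity of each probe set, not log-transformed, which the authors made with Expression Console. The version of MAS5 was not given in the sources used. The trimmed mean, with 2% left out at each end, was 500.003 on both arrays. MAS5 detection calls were not used here. Intensities under the median of all 45101 probe sets of both arrays (106.4) were set to that floor before the log2 ratio was taken, which shortens ratios of dim genes, and where 1 array was at the floor the ratio is a bound. Control probe sets (64) and probe sets with several gene symbols (932) or none (9160) were left out of gene counts, and 34741 of the 34945 with 1 symbol matched the RefSeq table by gene identifier. A gene took the value of its brightest probe set by mean log2 intensity. Probe sets ending in _s_at or _x_at may detect several transcripts. Signals were summed over the markers of a cell type only to set the 2 arrays side by side, and a sum weights probe sets by their brightness. The further lists of clock, response and marker genes, of which 7 listed genes were not analysed here, as well as the members and phases, were chosen with earlier results of these data known. Of the further clock genes, those over 1.5-fold and those with a set phase were named, and Btrc, Bhlhe40 and Cry2 were named after their values were seen. Of the other lists the 3 with the largest difference were named. Outside this rule, the rest of the glucocorticoid response genes, Arc and Avp were named. So were Tmem119, P2ry12, Cldn11, Gja1 and S100b, which lay on the other side of 0 from most of their list, and some genes under the floor. The steps were tested on simulated data, with changes set only in bright genes and larger than any seen in the clock genes. That test does not cover differences of the size reported here. The alternatives were floors at the 40th and 60th percentile, no floor, quantile normalisation, centring on the median, removal of a loess trend (span 0.3), the median over probe sets, and leaving out _s_at and _x_at probe sets. Python 3.11.15 with numpy 2.4.6, pandas 2.3.3, scipy 1.17.1 and statsmodels 0.14.6 was used.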

Additional observations from a re-analysis of the deposited data

How the results depend on the processing

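Under the 8 alternatives the 10 clock genes had 79 values, since Nr1d1 was under the floor at the 60th percentile, and 77 of them were below 0. The exceptions were Dbp, with a log2 ratio of 0.01 without _s_at and _x_at probe sets, and Per3, with 0.15 by the median over its probe sets, of which 1 is a bound; by the same median Per2 was at -0.22. Many of the 79 values could not differ from the main one. The other floors and no floor returned the main value for every clock gene measured. Leaving out _s_at and _x_at probe sets changed only Dbp, and the median over probe sets only Per2, Per3, Dbp and Hlf. The count of 77 therefore says little on how firm the signs are. Centring each array on its median, which moved the median of all genes from -0.02 to 0.02, left all 10 below 0, with Arntl at -0.03. The difference between the phases, -0.06, was 0.06 by the median over probe sets. The median of the further morning genes, 0.35, was 0.041 at the 60th percentile floor and 0.14 by the median over probe sets. The median of the temperature-driven genes, -0.02, was 0.02 with centring and 0.03 by the median over probe sets. The counts over all genes depended on the floor. Over 2-fold lower were 102 genes, or 173 at the 40th percentile floor, 55 at the 60th and 250 without a floor. Over 2-fold higher were 151, or 250 without a floor, and over 1.5-fold lower 584, or 352 at the 60th percentile. Of 184 summaries of lists and counts under the alternatives, 178 moved by less than 0.26 on the log2 scale (the SD between probe sets divided by the square root of 2) or, for counts, by less than 1.5 times. No paired analysis was possible because each genotype had 1 array. The number of arrays limits the precision, and signals near the floor, such as those of Nr1d1, are the least precise.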

Other observations

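Among the further clock genes, 1 probe set stood apart from the others of its gene. A probe set of Nono, which encodes an RNA-binding protein that associates with PER proteins, went from 308 in WT to 1978 in CD47 KO, 6.42-fold higher, while the brightest probe sets of Nono gave log2 ratios of 0.08 and 0.12. It was chosen after its values were seen. Btrc also differed between probe sets, at -0.55 by the brightest and 0.64 by the next, which went from 110.9 to 172.4.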
